A study of Danio rerio with 12 samples.

Results

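GFP-positive cells of the th:Gal4 zebrafish line (Danio rerio) were compared between 48 and 36 h after fertilization. The line carries a th:Gal4VP16 driver, named for the tyrosine hydroxylase gene th, and a UAS:EGFP responder. The comparison rests on 2 of the 12 libraries of the series, 1 GFP-positive library at 48 h and 1 at 36 h, both polyA RNA from cells sorted out of whole dissociated embryos and amplified before sequencing. The 2 GFP-negative libraries of the same line and ages served as the background change between the ages. Each age was a separate experiment, so a change with age and a difference between experiments cannot be told apart. The series as a whole set GFP-positive against GFP-negative cells in 6 experiments over several lines and ages, these 2 ages of the th:Gal4 line among them, to profile catecholaminergic cells. The submitters' design text states that this line is inefficient at marking catecholaminergic neurons in early embryos. In each deposited table the GFP-positive library was taken as the one whose level minus the other's gives the deposited difference, a convention that the headers show for 1 table of another line and that was assumed for the 48 and 36 h tables. If both tables followed the opposite convention, every GFP-positive and GFP-negative value below would swap. With 1 library per age and sort there are no replicates, so every interval below is a 95% counting interval and every difference describes these libraries.

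Dopamine and noradrenaline are made from tyrosine by tyrosine hydroxylase, which needs tetrahydrobiopterin as cofactor, then by an aromatic amino acid decarboxylase and, in noradrenergic cells, by dopamine beta-hydroxylase. Vesicular and plasma membrane transporters then load and take back the transmitter. In the zebrafish embryo the catecholaminergic cells lie mainly in the ventral diencephalon, the locus coeruleus, the hindbrain and the sympathetic chain. Tetrahydrobiopterin synthesis is also used by pigment cells of the neural crest, where it feeds pteridine pigment.

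The libraries held 25011503 exon reads at 48 h and 22779177 at 36 h in GFP-positive cells, and 27682819 at 48 h and 21326333 at 36 h in GFP-negative cells. Reads in exons made up 81.2% of the library total behind the authors' RPKM values at 48 h and 69.2% at 36 h in the GFP-positive pair, and 80.8% and 66.1% in the GFP-negative pair. A feature was considered when its larger library held at least 5 CPM (reads scaled to library size) and 20 reads. Ratios are 48 h over 36 h on a log2 scale after TMM scaling, which sets the bulk of genes near 0. Scaling on library size alone would add 0.51 to every GFP-positive log2 ratio and take 0.36 from every GFP-negative one.

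The markers only partly fit the label of sorted catecholaminergic neurons. Reads of th, the defining gene, numbered 272 at 48 h and 44 at 36 h in GFP-positive cells, against 31 and 18 in GFP-negative cells. Genes of neurons in general (26 considered of 32 matched) took 0.272% of exon reads at 48 h and 0.188% at 36 h in GFP-positive cells, less than the 0.428% and 0.378% in GFP-negative cells. Genes of epidermis and periderm, the embryonic skin, took 8.98% at 48 h and 4.8% at 36 h in GFP-positive cells, against 0.569% and 0.467% in GFP-negative cells. The libraries are therefore called GFP-positive here and not neurons.

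Of 10052 genes considered in GFP-positive cells, 2142 (21.3%) were at least 2-fold higher at 48 h and 1480 (14.7%) at least 2-fold lower. At least 4-fold, 723 (7.19%) were higher and 380 (3.78%) lower. With library size scaling the split was 3729 against 740 at 2-fold and 1228 against 200 at 4-fold. Of 9754 genes considered in GFP-negative cells, 579 (5.94%) were at least 2-fold higher at 48 h and 631 (6.47%) at least 2-fold lower. At least 4-fold, 96 (0.984%) were higher and 130 (1.33%) lower there, and library size scaling turned these splits to 298 against 1190 and 57 against 226. Over the genes considered in each pair, the median size of the log2 ratio was 0.72 in GFP-positive and 0.35 in GFP-negative cells. Of the 8934 genes considered in both pairs, the GFP-positive change exceeded the GFP-negative change by at least 4-fold in 265 (2.97%). In 169 (1.89%) the GFP-positive change lay at least 4-fold below. With library size scaling these counts were 881 and 41. With the stricter minimum of 20 CPM and 100 reads the balance turned the other way, to 50 above and 112 below. Each count of list members given below is to be read against the 21.3% higher and 14.7% lower of all considered genes in GFP-positive cells.

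Of the genes considered in both pairs, 1567 were at least 2-fold higher at 48 h in GFP-positive cells and 473 in GFP-negative cells. The 236 genes on both lists were 15.06% of the first and 49.9% of the second. At least 2-fold lower were 1346 in GFP-positive and 445 in GFP-negative cells, and the 357 shared genes were 26.5% of the first and 80.2% of the second. Opposite changes of at least 2-fold each were few, with 5 genes higher in GFP-positive and lower in GFP-negative cells and 37 the other way round.

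**Figure D1:**
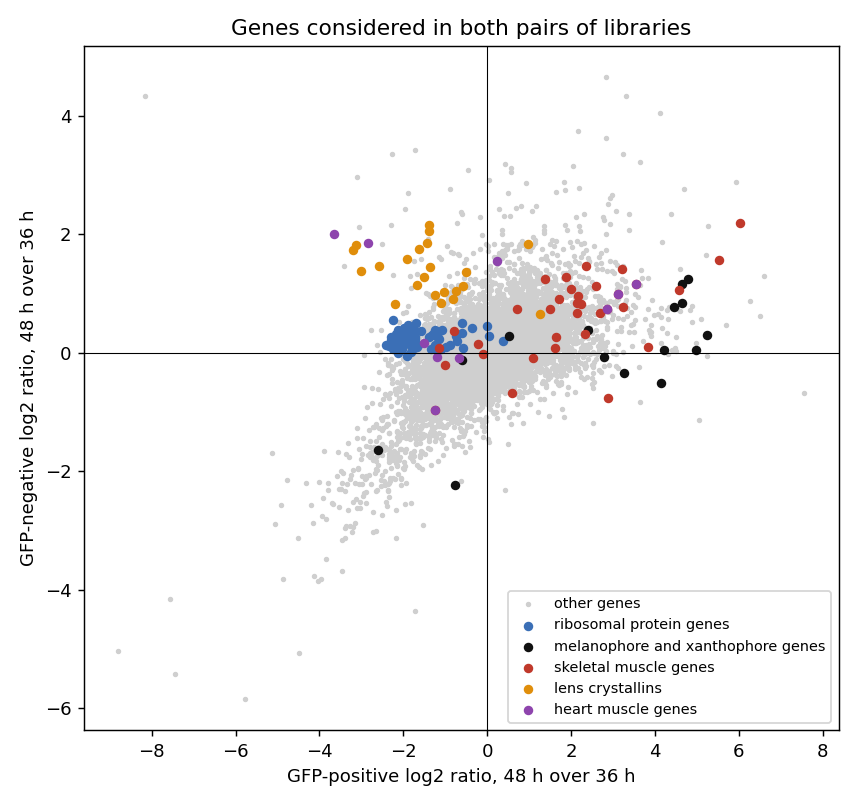
Each point is a gene considered in both pairs, with its GFP-positive log2 ratio of 48 h over 36 h on the x axis and its GFP-negative log2 ratio on the y axis, both TMM scaled. Ribosomal protein genes (blue) lie to the left with GFP-negative ratios near 0.24, crystallins (orange) mostly upper left, and pigment cell (black) and skeletal muscle genes (red) mostly to the right.

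The considered genes of catecholamine synthesis and transport were mostly higher at 48 h, led by the genes of the tetrahydrobiopterin cofactor. Of 14 genes found in the deposited files, 9 were considered. Of these 6 were at least 2-fold higher, 2 at least 2-fold lower and 1 was within 2-fold, with a median log2 ratio of 1.95 against 0.14 over all considered genes. The 6 higher genes were th and the cofactor genes gch2, GCH1, PTS, pcbd1 and qdpra. No transporter gene was considered. PTS, th and ddc passed the minimum through the 48 h library alone, and dbh through the 36 h library alone. With no minimum the list median was 2.09. The list summed to 115695 reads at 48 h (0.463% of exon reads) and 3828 at 36 h (0.0168%). One gene, gch2, made up most of that sum. Without it the other 13 genes held 9238 reads at 48 h and 2033 at 36 h, a log2 ratio of 1.54 (1.47 to 1.61). In libraries of sorted cells, a larger share of cells of a type and more RNA per cell cannot be told apart.

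The genes that define catecholamine neurons were present at low counts. The rate-limiting enzyme gene th (chromosome 25, 24778671 to 24797839 on the Zv9 build) had 272 reads at 48 h and 44 at 36 h in GFP-positive cells, a log2 ratio of 1.95 (1.52 to 2.48). In GFP-negative cells its 31 and 18 reads gave 0.71. The decarboxylase gene ddc (chromosome 16, 9598874 to 9643081) had 241 reads at 48 h and 107 at 36 h in GFP-positive cells, a log2 ratio of 0.52 (0.19 to 0.87). In GFP-negative cells its 57 and 24 reads gave 1.17, on counts below the minimum. The GFP-positive ratio of ddc was thus under 2-fold with TMM scaling, while the th ratio was over it. The 0.51 that library size scaling adds would bring ddc just over 2-fold.

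Reads of both transmitter transporter genes and of th2 appeared in the GFP-positive pair at 48 h and not at 36 h. The vesicular monoamine transporter gene slc18a2 had 22 reads at 48 h and 0 at 36 h, at least 4.70-fold higher when the 36 h library is set to a floor of 3 reads. The dopamine reuptake transporter gene, SLC6A3 in the tables, had 12 reads at 48 h and 0 at 36 h, at least 2.56-fold higher. Here and below, folds against the floor leave out counting error in the other library. For SLC6A3 the counting interval starts at a log2 ratio of 0.83. In GFP-negative cells slc18a2 had 4 reads at 48 h and 8 at 36 h, and SLC6A3 had 7 and 0. The paralogue th2 had 20 reads at 48 h and 0 at 36 h in GFP-positive cells, at least 4.27-fold higher, and 11 and 3 in GFP-negative cells. None of these 3 genes reached the minimum for a considered gene.

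The noradrenergic enzyme gene was lower at 48 h in GFP-positive cells, as was the cofactor recycling gene qdprb1 described below. The dopamine beta-hydroxylase gene dbh (chromosome 10, 10530157 to 10573014) had 49 reads at 48 h and 204 at 36 h in GFP-positive cells, a log2 ratio of -2.64 (-3.18 to -2.24). In GFP-negative cells it had 34 reads at 48 h and 4 at 36 h, a log2 ratio of 2.57 on counts below the minimum. The 2 sorts were far apart in dbh reads at 36 h and closer at 48 h.

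The genes of cofactor synthesis held most reads of the pathway. The gene gch2 (chromosome 12, 26612194 to 26618916), for a GTP cyclohydrolase that starts tetrahydrobiopterin synthesis and is used by pigment cells, had 106457 reads at 48 h and 1795 at 36 h in GFP-positive cells, a log2 ratio of 5.25 (5.18 to 5.32). In GFP-negative cells it had 4147 and 3330 reads, a log2 ratio of 0.30. Its relative GCH1, the form used in monoamine neurons, had 3069 reads at 48 h and 227 at 36 h in GFP-positive cells (log2 ratio 3.11, 2.92 to 3.32), against 780 and 415 in GFP-negative cells. The next enzyme gene of the route, PTS, had 193 and 18 reads (2.68, 2.08 to 3.56) and the cofactor recycling gene pcbd1 had 4450 and 606 reads (2.23, 2.11 to 2.36), each at 48 h and at 36 h in GFP-positive cells.

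Of the dihydropteridine reductase genes, which regenerate the cofactor, qdpra was higher at 48 h and qdprb1 lower. In GFP-positive cells qdpra had 563 reads at 48 h and 140 at 36 h (log2 ratio 1.36, 1.1 to 1.64), and qdprb1 had 315 and 652 (-1.68, -1.89 to -1.50). The sepiapterin reductase gene spra had 31 reads in each GFP-positive library. Over the same libraries, 19 of 23 considered melanophore and xanthophore genes were at least 4-fold higher at 48 h. That list took 1.5% of exon reads at 48 h and 0.0557% at 36 h, with none of its members at 0 in either library. The gene gch2 is on both lists, is 1 of the 19, and held 106457 of the pigment list's 374084 reads at 48 h. How far pigment cells account for the cofactor genes was not tested.

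**Figure D2:**
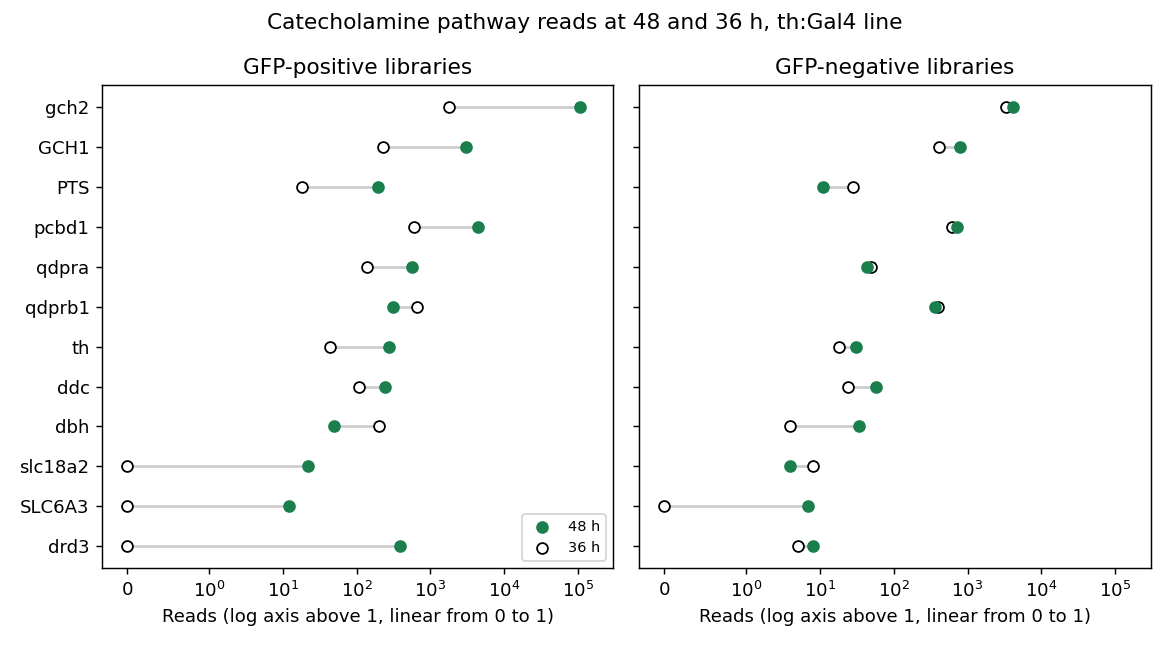
Reads of 12 catecholamine pathway genes at 48 h (filled) and 36 h (open), in the GFP-positive libraries on the left and the GFP-negative ones on the right. The x axis is logarithmic above 1 read. In GFP-positive cells drd3, slc18a2 and SLC6A3 were at 0 reads at 36 h, gch2 reached 106457 at 48 h, and dbh and qdprb1 had fewer reads at 48 h than at 36 h.

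Few receptor and breakdown genes had enough reads. Of 17 matched genes 3 were considered. Each was at least 4-fold higher at 48 h, against 7.19% of all considered genes. All 3 passed the minimum through the 48 h library alone, with 36 h levels of 0 (drd3), 0.57 (comtb) and 2.37 CPM (mao). The filter thus favoured higher genes, and with no minimum the list median fell from 2.76 to 0.83. The dopamine receptor gene drd3 (chromosome 24, 21576758 to 21614771) had 385 reads at 48 h and 0 at 36 h in GFP-positive cells, at least 82.2-fold higher, against 8 and 5 in GFP-negative cells. Monoamine oxidase, gene mao, had 345 reads at 48 h and 54 at 36 h (log2 ratio 2.00, 1.62 to 2.47). The catechol methyltransferase gene comtb had 152 and 13 reads (2.76, 2.09 to 3.85). Reads of drd3 were thus at most 8 in the other 3 libraries.

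Of 20 considered transcription factor genes of diencephalic and catecholaminergic neurons, 5 were at least 2-fold higher (25%, against 21.3% of all genes), 1 was at least 2-fold lower and 14 were within 2-fold, with a median log2 ratio of 0.13 in GFP-positive cells and 0.34 in GFP-negative cells. The orphan nuclear receptor gene nr4a2b, whose family is needed for dopamine neurons in mammals, had 213 reads at 48 h and 27 at 36 h in GFP-positive cells (log2 ratio 2.27, 1.76 to 2.97), against 269 and 128 in GFP-negative cells (1.05). The homeobox gene otpa, required for diencephalic dopamine neurons, had 4227 and 1224 reads in GFP-positive cells (1.14, 1.05 to 1.24), and 7372 and 3520 in GFP-negative cells (1.05). Its paralogue otpb stood at 0.95 in GFP-positive and 0.89 in GFP-negative cells. The forebrain zinc finger gene fezf2 was the 1 lower gene, with 110 reads at 48 h and 339 at 36 h in GFP-positive cells (-2.24, -2.59 to -1.95) and a GFP-negative ratio of -0.26.

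Of 13 considered noradrenergic and sympathetic genes, 2 were at least 2-fold higher and 1 lower, neither share above that of all genes, with a median of 0.24. The neural crest factor gene tfap2b had 659 reads at 48 h and 172 at 36 h in GFP-positive cells (log2 ratio 1.29, 1.05 to 1.55). The signalling regulator rgs4 had 1150 and 144 reads (2.34, 2.1 to 2.61). The lower gene was chga, for the granule protein chromogranin A, with 74 and 173 reads (-1.83, -2.28 to -1.47) and a GFP-negative ratio of -0.02.

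Of 13 considered hypothalamic neuropeptide genes, 4 were at least 2-fold higher (30.8%, against 21.3% of all genes) and 1 lower in GFP-positive cells. In GFP-negative cells 7 of 13 were higher (53.8%, against 5.94%) and 0 lower. The median was 0.64 in GFP-positive and 1.06 in GFP-negative cells. The gonadotropin-releasing hormone gene gnrh3 had 189 reads at 48 h and 14 at 36 h in GFP-positive cells (log2 ratio 2.98, 2.33 to 4.01) and 5 and 3 in GFP-negative cells. The feeding peptide gene agrp had 1511 and 393 reads in GFP-positive cells (1.3, 1.14 to 1.46) and 50 and 26 in GFP-negative cells. Both peptides were thus more frequent in the GFP-positive library at each age.

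Among 26 considered pan-neuronal genes, 5 were at least 2-fold higher (19.2%, against 21.3% of all genes) and 3 lower (11.5%, against 14.7%), with a median log2 ratio of 0.13 in GFP-positive and 0.67 in GFP-negative cells. The RNA-binding protein gene elavl3, a marker of new neurons, had 8415 reads at 48 h and 8285 at 36 h in GFP-positive cells (-0.62, -0.66 to -0.58). The endoplasmic reticulum protein gene rtn1b had 5185 and 421 reads (2.98, 2.84 to 3.13). Of 20 synaptic vesicle and release genes, 4 were at least 2-fold higher and 2 lower (20% and 10%), and the paralogues rab3aa and rab3ab of the vesicle GTPase moved apart. In GFP-positive cells rab3aa had 269 and 27 reads (2.61, 2.1 to 3.30), and rab3ab had 114 and 337 (-2.18, -2.53 to -1.90), at 48 h and at 36 h.

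Of 33 matched GABA and glutamate genes 10 were considered, of which 5 were at least 2-fold higher and 1 lower. Among the higher ones gad1b, glrbb and grin1a passed the minimum through the 48 h library alone, so the filter favoured higher genes. Their 36 h levels were 1.62, 1.40 and 3.03 CPM. The list median of 0.77 fell to 0.32 with no minimum and to 0.20 with the stricter minimum. The GABA-synthesizing enzyme gene gad1b had 230 reads at 48 h and 37 at 36 h in GFP-positive cells (log2 ratio 1.95, 1.49 to 2.54) and 426 and 151 in GFP-negative cells (1.47). Glia and myelin genes had a median of -0.02, which turns to 0.49 with library size scaling. In that list sox10, a neural crest factor shared with pigment cells, had 1684 and 131 reads in GFP-positive cells (3.03, 2.78 to 3.31), while gfap, the glial filament gene, had 1732 and 2476 (-1.16, -1.25 to -1.07). The serotonergic list had 1 considered gene, gata3, at 0.63 (0.42 to 0.85).

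Pigment cell genes had the highest median of the lists with at least 5 considered genes. Melanophores, xanthophores and iridophores are neural crest derivatives that make melanin, pteridines with carotenoids, and purine platelets. Of 23 considered melanophore and xanthophore genes, 19 were at least 2-fold higher at 48 h and 1 was lower, with a median log2 ratio of 4.21 in GFP-positive cells and 0.05 in GFP-negative cells. The 19 higher genes were all at least 4-fold higher. The list summed to 374084 reads at 48 h and 12682 at 36 h in GFP-positive cells, against 14625 and 12388 in GFP-negative cells. These GFP-positive sums include gch2, also on the catecholamine list, with 106457 and 1795 reads.

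The melanin enzyme gene tyrp1b (chromosome 1, 18074732 to 18087943) had 96738 reads at 48 h and 2238 at 36 h in GFP-positive cells, a log2 ratio of 4.79 (4.73 to 4.85), against 2120 and 885 in GFP-negative cells. The melanosome transporter gene oca2 had 607 and 5 reads in GFP-positive cells (5.89, 5.05 to 7.91). Xanthine dehydrogenase, gene xdh, of pteridine metabolism, had 969 and 14 reads (5.32, 4.72 to 6.35), and 49 and 50 in GFP-negative cells. The sugar transporter family gene slc2a15b, needed for pigment cells in medaka, had 3416 and 68 reads (4.98, 4.66 to 5.38), and 112 and 107 in GFP-negative cells. In GFP-negative cells xdh, on counts below the minimum, and slc2a15b differed little with age, while tyrp1b was higher at 48 h. Of 16 genes of the list considered in GFP-negative cells, 2 were at least 2-fold higher and 3 lower.

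Other standard genes of the melanophore programme, chosen after their values were seen, had ratios of similar size. In GFP-positive cells dct had 64275 reads at 48 h and 1628 at 36 h, the melanosome matrix gene silva 65072 and 1883, and the master regulator mitfa 2243 and 73. Their log2 ratios were 4.66, 4.47 and 4.27. In GFP-negative cells dct stood at 1.15, silva at 0.77 and mitfa, on counts below the minimum, at 0.08. The paired box gene pax3a, an early neural crest factor, was the 1 lower member, with 200 and 785 reads (-2.60, -2.85 to -2.39), and was also lower in GFP-negative cells (-1.64).

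Iridophore and purine genes were higher in 11 of 17 cases and lower in 1, with a median of 1.46 in GFP-positive and -0.03 in GFP-negative cells. The purine phosphorylase gene pnp4a, an iridophore marker, had 3195 reads at 48 h and 135 at 36 h in GFP-positive cells (log2 ratio 3.91, 3.67 to 4.18) and 290 and 207 in GFP-negative cells. The purine synthesis gene paics had 9893 and 1405 reads in GFP-positive cells (2.17, 2.09 to 2.25). The lower gene was fhl2a, also on the heart muscle list, with 152 and 476 reads (-2.27, -2.56 to -2.02).

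**Figure D3:**
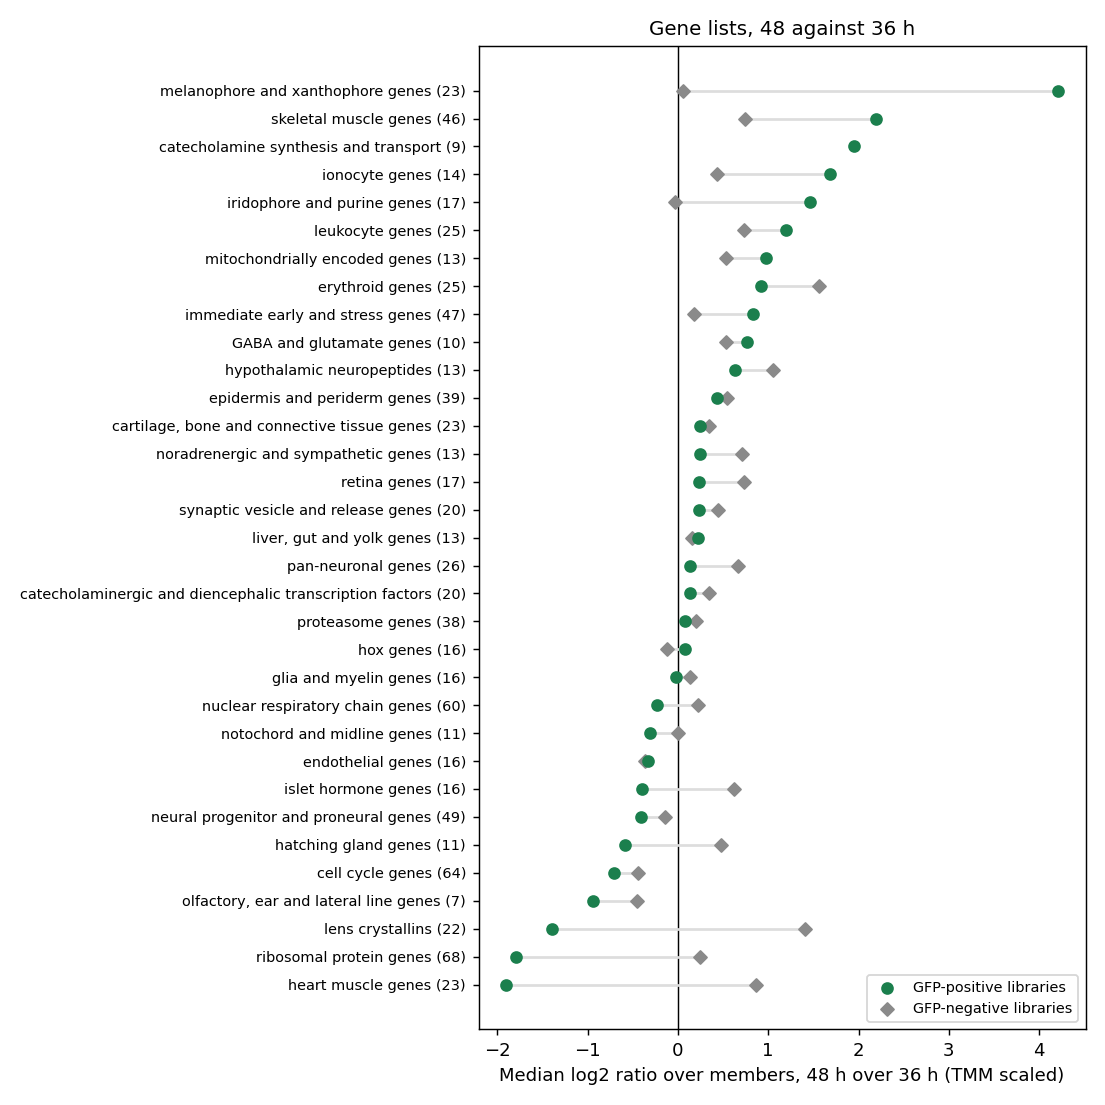
Median log2 ratio of 48 h over 36 h for each list with at least 5 considered members, in GFP-positive (green circles) and GFP-negative libraries (grey diamonds, where at least 5 were considered), TMM scaled. The number of GFP-positive genes considered follows each name. Medians run from 4.21 for melanophore and xanthophore genes to -1.90 for heart muscle genes, and the GFP-positive sign of 6 lists near 0 turns with library size scaling.

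Skeletal muscle genes were higher at 48 h and heart muscle genes lower. Of 46 considered skeletal muscle genes, 36 were at least 2-fold higher and 2 lower, with a median log2 ratio of 2.2 in GFP-positive and 0.74 in GFP-negative cells. The list took 0.547% of exon reads at 48 h and 0.0918% at 36 h. The fast muscle calcium buffer gene pvalb4 (chromosome 3, 61784965 to 61794633) had 8137 reads at 48 h and 111 at 36 h in GFP-positive cells (5.53, 5.28 to 5.84), and 232 and 76 in GFP-negative cells. The differentiation factor gene myog had 158 reads at 48 h and 0 at 36 h in GFP-positive cells, at least 33.7-fold higher, against 150 and 31 in GFP-negative cells. The slow myosin gene smyhc1 had 7361 and 200 reads (4.55, 4.36 to 4.77), with its close tandem copy smyhc2, with which reads may be shared, at 4.82. The giant sarcomere protein gene ttna, which is also on the heart muscle list, went the other way, with 2265 and 3421 reads (-1.24, -1.31 to -1.16).

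Of 23 considered heart muscle genes, 17 were at least 2-fold lower at 48 h in GFP-positive cells and 3 higher. The 3 higher genes, tnnc1b, tpma and actc1b, are also on the skeletal muscle list. Of the 19 genes not on that list, 16 were lower and 0 higher, with a median log2 ratio of -2.43. The ventricular myosin gene vmhc (chromosome 2, 23594235 to 23607626) had 688 reads at 48 h and 6018 at 36 h in GFP-positive cells (-3.77, -3.89 to -3.66), against 35 and 8 in GFP-negative cells. The cardiac light chain gene cmlc1 had 1487 and 12076 reads (-3.66, -3.74 to -3.59), against 161 and 38 in GFP-negative cells. The cardiac sodium-calcium exchanger gene slc8a1a had 9 and 298 reads (-5.35, -6.83 to -4.75), and the atrial myosin gene myh6 had 71 and 534 (-3.51, -3.93 to -3.19). In the 10 heart genes considered in GFP-negative cells the median was 0.86, on far fewer reads. These 10 include actc1b of the skeletal muscle list. Heart genes not on that list summed to 4967 reads at 48 h and 4001 at 36 h in GFP-negative cells.

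Only 4 smooth muscle genes were considered, 3 of them at least 2-fold higher, among them the calponin gene cnn2 with 4106 reads at 48 h and 1232 at 36 h (1.09, 1.00 to 1.19). The smooth muscle actin gene acta2 stood at -0.95 (-1.3 to -0.62).

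Hormone genes of the endocrine islet were among the most reduced at 48 h. The somatostatin gene sst2 (chromosome 2, 5368743 to 5371233) had 5 reads at 48 h and 3933 at 36 h in GFP-positive cells, a log2 ratio of -9.69 (-11.89 to -9.04), against 39 and 89 in GFP-negative cells. The glucagon gene gcgb (chromosome 9, 52611548 to 52617862) had 1 read at 48 h and 628 at 36 h in GFP-positive cells (-8.16, -15.24 to -7.45), against 571 and 26 in GFP-negative cells (4.34). Insulin, gene ins, had 176 and 1270 reads in GFP-positive cells (-3.48, -3.73 to -3.27), and 64 and 68 in GFP-negative cells. The list as a whole did not follow these hormones. Of 16 considered genes 1 was at least 2-fold higher and 4 lower, and the median of -0.39 turned to 0.11 with library size scaling.

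Hatching gland genes, whose secreted proteases digest the egg envelope, were lower at 48 h in 5 of 11 cases and higher in 2. The hatching enzyme genes he1a and he1b, near-identical neighbours on chromosome 22 whose reads may be shared, stood at -1.71 and -2.27 in GFP-positive cells and at 3.43 and 3.36 in GFP-negative cells. Together with the cathepsin gene ctsl1b they held 100273 reads at 48 h and 263868 at 36 h in GFP-positive cells, against 3985 and 473 in GFP-negative cells, so they stayed far more frequent in the GFP-positive library. The secretory pathway factor xbp1 was higher, with 14726 and 4278 reads (1.14, 1.09 to 1.19).

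Liver, gut and yolk genes showed 2 of 13 at least 2-fold higher and 4 lower (30.8%, against 14.7% of all genes), with a median of 0.23. The urate oxidase gene uox had 43 reads at 48 h and 114 at 36 h in GFP-positive cells (-1.99, -2.59 to -1.53). The retinol-binding protein gene rbp4 had 4515 and 802 (1.85, 1.74 to 1.96). One exocrine pancreas gene was considered, cpa5, at 2.77 (2.31 to 3.40) in GFP-positive and 2.29 in GFP-negative cells.

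Ionocytes are the salt-transporting cells of the embryonic skin. Of 24 matched ionocyte genes 14 were considered in GFP-positive cells. Of these, 11 were at least 2-fold higher at 48 h and 1 was lower, with a median of 1.68 against 0.43 over the 5 considered in GFP-negative cells. The ionocyte factor gene foxi3b (chromosome 14, 35644823 to 35646509) had 579 reads at 48 h and 7 at 36 h in GFP-positive cells (5.44, 4.68 to 7.05), and 13 and 13 in GFP-negative cells. The sodium pump gene atp1a1a.2 had 76262 and 4010 reads (3.61, 3.56 to 3.65). It lies in a tandem group of similar copies, and another member, atp1a1a.4, had 152 and 222 reads (-1.18, -1.50 to -0.88). The ammonium transporter gene rhbg had 299 and 21 reads (3.1, 2.55 to 3.90). Among the higher genes, foxi3b and rhbg passed the minimum through the 48 h library alone, so the filter favoured higher genes. The list median was 1.42 with no minimum and 1.81 with the stricter minimum.

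Epidermis and periderm genes took a far larger share of GFP-positive than of GFP-negative reads at each age, as given above. Of 39 considered, 11 were at least 2-fold higher (28.2%, against 21.3% of all genes) and 1 lower, with a median of 0.43 in GFP-positive and 0.55 in GFP-negative cells. The keratin gene cyt1 had 120898 reads at 48 h and 27783 at 36 h in GFP-positive cells (1.48, 1.46 to 1.5). The fin fold genes and2 and and3 were higher in both sorts, at 2.06 and 2.83 in GFP-positive and at 3.15 and 4.66 in GFP-negative cells. The periderm calcium-binding gene icn2 was the 1 lower gene, with 60007 and 82941 reads (-1.11, -1.12 to -1.09).

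**Figure D4:**
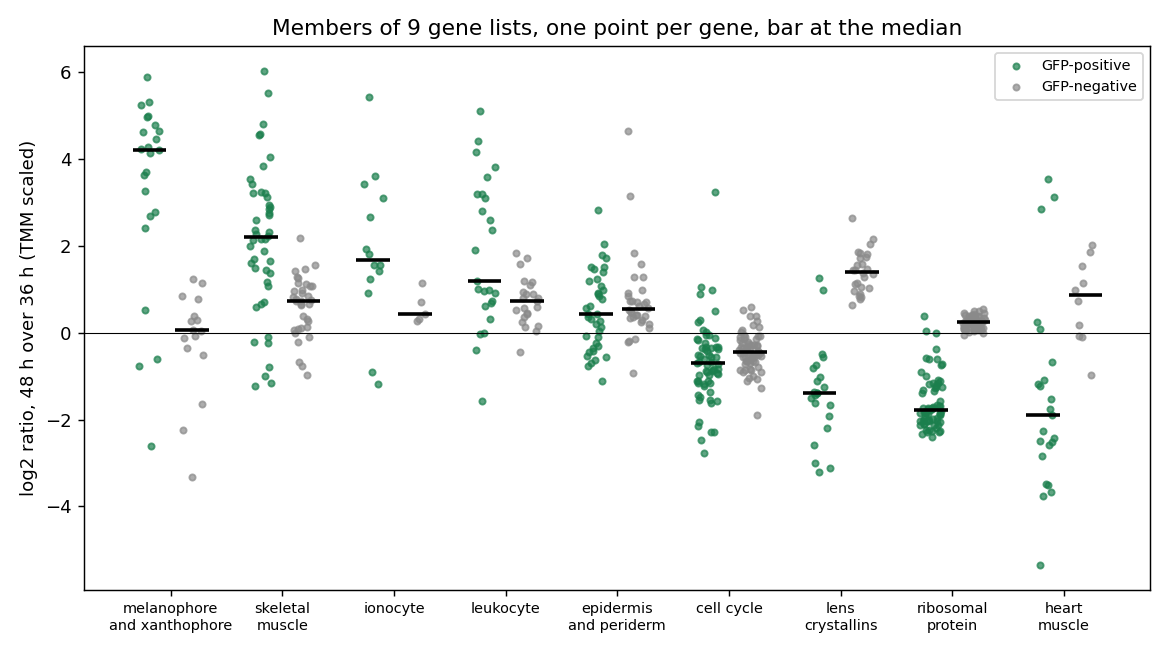
Log2 ratio of 48 h over 36 h for every considered member of 9 lists, in GFP-positive (green, left of each pair) and GFP-negative libraries (grey), with a bar at the median, TMM scaled and with a prior count of 2. Skeletal muscle members spread from -1.24 to 6.04, ribosomal protein members from -2.40 to 0.38.

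Ribosomal protein genes were lower at 48 h as a block. All 68 were considered, 57 were at least 2-fold lower, 0 were at least 2-fold higher and 11 were within 2-fold, with a median log2 ratio of -1.79 in GFP-positive cells (-1.28 with library size scaling) and 0.24 in GFP-negative cells. They took 15.9% of exon reads at 48 h and 34.3% at 36 h in GFP-positive cells, against 18.7% and 20.6% in GFP-negative cells. The large-subunit gene rpl35a had 50145 reads at 48 h and 169798 at 36 h in GFP-positive cells (-2.40, -2.42 to -2.39). At the other end rpl3 had 85535 and 42100 (0.38, 0.36 to 0.40).

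Genes with short exon sequence had lower ratios in the GFP-positive pair. Genes with at most 1000 bases of exon, without the ribosomal protein genes, had a median of -0.41 (927 genes) in GFP-positive and 0.26 (874 genes) in GFP-negative cells. The median over genes of 1001 to 2000 bases was 0.48, and over genes above 5000 bases it was -0.37, in GFP-positive cells. The ribosomal protein genes had a median exon length of 1007 bases. How far exon length bears on the block was not tested.

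Mitochondrially encoded transcripts took a larger share at 48 h. Of 13 mitochondrially encoded genes 6 were at least 2-fold higher at 48 h and 1 lower, and their share was 8.22% at 48 h and 3.92% at 36 h in GFP-positive cells, against 4.94% and 4.78% in GFP-negative cells. The cytochrome b gene mt-cyb had 212516 and 36072 reads in GFP-positive cells (1.92, 1.90 to 1.93), and the complex I gene mt-nd3 had 24239 and 42925 (-1.47, -1.49 to -1.44). Of 60 nuclear respiratory chain genes 13 were at least 2-fold higher (21.7%, against 21.3% of all genes) and 6 lower (10%, against 14.7%), with a median of -0.23 that turns to 0.28 with library size scaling. The succinate dehydrogenase gene sdhb had 2365 and 328 reads (2.2, 2.04 to 2.38), and the small subunit gene cox7c had 10425 and 20486 (-1.62, -1.65 to -1.58). Of 38 proteasome genes 0 were at least 2-fold higher and 3 lower, with a median of 0.08.

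**Figure D5:**
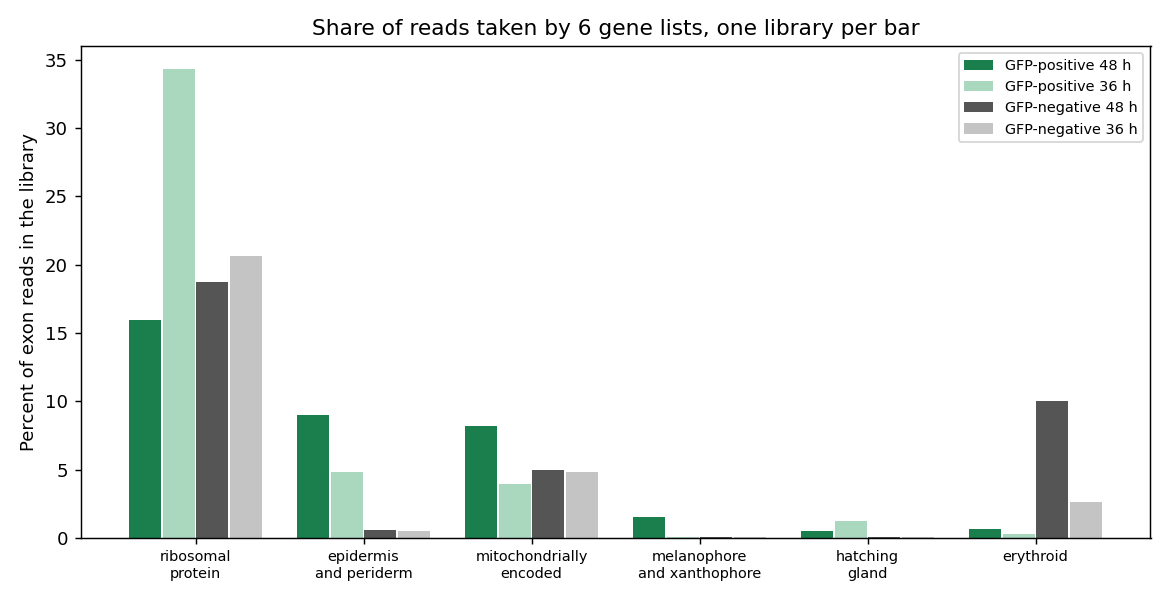
Percent of exon reads taken by 6 gene lists, 1 bar per library, with 48 h left of 36 h and GFP-positive left of GFP-negative. Ribosomal protein genes drop to 15.9% at 48 h against 34.3% at 36 h in GFP-positive cells, and erythroid genes stand at 9.99% at 48 h against 2.61% at 36 h in GFP-negative cells.

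Cell cycle genes tended lower at 48 h in both sorts. Of 64 considered, 20 were at least 2-fold lower and 2 higher in GFP-positive cells. In GFP-negative cells 6 of 64 were lower (9.38%, against 6.47% of all genes considered there) and 0 higher. The median was -0.71 in GFP-positive and -0.44 in GFP-negative cells. With library size scaling these medians were -0.20 and -0.81. The proliferation marker MKI67 had 3288 reads at 48 h and 11735 at 36 h in GFP-positive cells (-2.48, -2.53 to -2.42), and a GFP-negative ratio of -1.27. The mitotic phosphatase gene cdc25 had 1477 and 6494 reads (-2.78, -2.86 to -2.70) but stood at 0.38 in GFP-negative cells. The cyclin gene ccna2 was a higher exception, with 197 and 12 reads (3.24, 2.56 to 4.37).

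Neural progenitor and proneural genes were at least 2-fold lower in 16 of 49 cases and higher in 3, with a median of -0.41 that turns to 0.09 with library size scaling. The intermediate filament gene nes had 859 reads at 48 h and 2586 at 36 h in GFP-positive cells (-2.23, -2.35 to -2.12), and the Notch receptor gene notch1b had 54 and 301 (-3.07, -3.57 to -2.70). Of the Notch targets, her2 had 1196 and 3247 reads (-2.08, -2.18 to -1.99). Its relatives her4.2 and her4.4, members of a cluster of near-identical copies whose reads may be shared, stood at 5.93 and 1.39 in GFP-positive and at 2.89 and 1.09 in GFP-negative cells.

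Eye genes moved in both directions. Of 17 considered retina genes 8 were at least 2-fold higher and 5 lower in GFP-positive cells. In GFP-negative cells 6 of 15 were higher and 3 lower (40% and 20%, against 5.94% and 6.47% of all genes considered there). The photoreceptor factor gene crx had 559 reads at 48 h and 49 at 36 h in GFP-positive cells (2.83, 2.45 to 3.32), and 808 and 63 in GFP-negative cells (3.63). The pigment epithelium enzyme gene rpe65a had 651 and 65 reads in GFP-positive cells (2.65, 2.31 to 3.07), and 51 and 60 in GFP-negative cells (-0.24). The GFP-negative reads of rpe65a were below the minimum, with an interval of -0.82 to 0.31 that spans 0, while crx was higher at 48 h in both sorts.

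Lens crystallin genes, for the structural proteins of the lens, were at least 2-fold lower in 16 of 22 cases and higher in 1 in GFP-positive cells. In GFP-negative cells 20 of 26 were higher (76.9%, against 5.94% of all genes considered there). The medians were -1.39 in GFP-positive and 1.41 in GFP-negative cells, and with library size scaling 9 GFP-positive members were at least 2-fold lower. Many are near-identical copies whose reads may be shared. The beta crystallin gene crybb1 had 566 reads at 48 h and 151 at 36 h in GFP-positive cells (1.25, 1.00 to 1.53).

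Of 25 considered erythroid genes, 10 were at least 2-fold higher (40.0%, against 21.3% of all genes), 1 was lower and 14 were within 2-fold in GFP-positive cells. In GFP-negative cells 22 of 28 were higher (78.6%, against 5.94% of all genes considered there). The list took 0.652% of exon reads at 48 h and 0.288% at 36 h in GFP-positive cells. The blood group family transporter gene rhag had 2618 and 92 reads (4.17, 3.89 to 4.50), and the heme synthesis gene alas2 had 1067 and 80 (3.07, 2.77 to 3.44). Globin genes, close copies whose reads may be shared, did not all follow. In GFP-positive cells hbae1 was the 1 lower gene, with 122 reads at 48 h and 611 at 36 h (-2.94, -3.26 to -2.68), and hbbe3 had 26876 and 23690 (-0.46, -0.49 to -0.44).

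Of 47 matched leukocyte genes 25 were considered in GFP-positive cells. Of these, 14 were at least 2-fold higher and 1 lower, with a median of 1.19 in GFP-positive and 0.73 in GFP-negative cells. The macrophage gene mfap4 had 1489 reads at 48 h and 52 at 36 h in GFP-positive cells (4.16, 3.80 to 4.62), against 806 and 526 in GFP-negative cells. The chemokine receptor gene cxcr3.2 had 189 and 2 reads in GFP-positive cells (5.11, 4.05 to 8.98), against 114 and 74 in GFP-negative cells. The macrophage factor irf8 had 229 and 9 reads (3.81, 3.08 to 5.17). All of these named genes passed the minimum through the 48 h library alone, so the filter favoured higher genes. With no minimum the list median was 1.07, and with the stricter minimum it stayed at 1.19.

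Of 14 matched germ cell genes 3 were considered in GFP-positive cells. Each was at least 4-fold higher at 48 h, against 7.19% of all considered genes. All 3 passed the minimum through the 48 h library alone, so the filter favoured higher genes. With no minimum the list median fell from 2.90 to 1.57. The germ line helicase gene vasa had 661 reads at 48 h and 82 at 36 h (2.35, 2.04 to 2.72), against 5 and 12 in GFP-negative cells. The germ granule gene tdrd7 had 493 and 41 reads (2.90, 2.48 to 3.44), against 3 and 3 in GFP-negative cells. Both had at most 12 reads in a GFP-negative library.

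Immediate early and stress genes, which dissociation can induce, were at least 2-fold higher in 20 of 47 cases and lower in 2, with a median of 0.83 in GFP-positive and 0.18 in GFP-negative cells. The growth arrest gene gadd45aa had 1034 reads at 48 h and 26 at 36 h in GFP-positive cells (4.59, 4.11 to 5.29), against 180 and 66 in GFP-negative cells. The phosphatase gene dusp2 had 2625 and 224 reads (2.90, 2.71 to 3.11), while atf3 had 610 and 945 (-1.27, -1.42 to -1.13). The part of dissociation or sorting in other ratios was not tested.

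Of 23 cartilage, bone and connective tissue genes 7 were at least 2-fold higher (30.4%, against 21.3% of all genes) and 0 lower, among them lum with 1284 reads at 48 h and 203 at 36 h (2.01, 1.80 to 2.24). Endothelial genes had a median of -0.33 (0.17 with library size scaling), with 1 of 16 higher and 3 lower, and notochord and midline genes one of -0.31 (0.20), with 1 of 11 higher and 2 lower. Of 16 hox genes 1 was at least 2-fold higher, hoxa10b at 2.72 (2.09 to 3.67), and 1 lower, hoxc13a at -1.40 (-1.88 to -0.99). Of 7 olfactory, ear and lateral line genes 0 were at least 2-fold higher and 3 lower (42.9%, against 14.7% of all genes), with a median of -0.94 in GFP-positive and -0.45 in GFP-negative cells and the otolith gene oc90 at -1.60 (-1.94 to -1.3).

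Genes outside the lists also had large ratios. The G protein regulator gene rgs5b (chromosome 2, 6590676 to 6593942) had 2086 reads at 48 h and 6 at 36 h in GFP-positive cells (7.47, 6.67 to 9.25), against 37 and 21 in GFP-negative cells. The vesicle protein gene syngr2b had 429 reads at 48 h and 0 at 36 h in GFP-positive cells, at least 91.6-fold higher, against 25 and 9 in GFP-negative cells. The tropomyosin gene tpm2 had 3712 and 70 reads in GFP-positive cells (5.06, 4.75 to 5.45), against 59 and 130 in GFP-negative cells. The organic anion transporter family gene slc22a7a had 7828 and 158 reads (4.97, 4.76 to 5.22), against 265 and 235 in GFP-negative cells. Among the lower ones, the cholesterol hydroxylase gene ch25h had 29 and 401 reads (-4.32, -5.03 to -3.89), and the eye homeobox gene vax2 had 23 and 324 (-4.32, -5.14 to -3.85), with GFP-negative ratios of -1.51 and -2.19.

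Of all considered genes in GFP-positive cells, 20 had 0 reads at 36 h and 0 genes had 0 reads at 48 h. Exon reads fell on 22683 features at 48 h and 19814 at 36 h. Folds given as lower bounds for such genes do not include counting error in the 48 h reads.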

How the data were processed

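Cells were sorted by GFP from dissociated embryos, and polyA RNA was amplified and sequenced, per the labels' protocols. Sheet names place the tables on Zv9. The aligner is not given in the sources used here. Each of the authors' deposited tables lists 32312 features. In one table of another line the authors deposited whole-number counts of exon reads and RPKM, per the file headers, and all 32312 of its deposited differences equal GFP-positive minus GFP-negative RPKM. The 48 and 36 h tables name neither library, so 48 columns of library values were not used. Their deposited difference and fold change, comparison scores per the file headers, with the exon length gave whole reads (100% of values within 0.02 of a whole number). Features at an equal level were taken as 0 in both libraries, because an equal level above 0 would need at least 16123341 reads, and the largest feature held 1241101. The 4483 features with an exon length of 0 were left out.

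Library pairs were scaled with TMM (edgeR 4.0.16, R 4.3.3), with a prior count of 2 for log2 ratios. Intervals are exact (Clopper-Pearson), cover counting error only and use no prior count. Amplified reads are not independent molecules. A gene with 0 reads in a library was set to a floor of 3 reads per library for "at least" folds. The recovery of known ratios was checked on simulated counts. The simulation used counting error only and a shared profile for both ages, so it does not cover amplification or a broad shift between libraries. No p-value was computed, as each group has 1 library. Members and the 38 gene lists were chosen with earlier results of these data known. Genes named are the catecholamine list, the 15 with the interval bound farthest from 0 in each direction, up to 5 per list and direction, and the 10 with the largest difference from the GFP-negative change in each direction, besides those said to be chosen later. Alternatives were library size scaling, median of ratios, a prior count of 0.5, a stricter minimum (20 CPM and 100 reads), no minimum, and sums over list members.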

Additional observations from a re-analysis of the deposited data

Results flagged for a closer look

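Some results moved in opposite directions in the GFP-positive and GFP-negative pairs (48 h over 36 h, log2). With 1 library per age and sort, the difference between the pairs was not tested. Among lists, lens crystallins had medians of -1.39 in GFP-positive and 1.41 in GFP-negative cells, and heart muscle genes -1.90 and 0.86. The heart medians rest on 23 considered genes in GFP-positive and 10 in GFP-negative cells, with skeletal muscle list members among them. Without members of that list, heart genes held 4967 reads at 48 h and 4001 at 36 h in GFP-negative cells, against 11899 and 42451 in GFP-positive cells.

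Among single genes higher in GFP-positive and lower in GFP-negative cells, slc2a15a stood at 4.24 and -2.62 and tpm2 at 5.06 and -1.13. Among those lower in GFP-positive and higher in GFP-negative cells, the glucagon gene gcgb stood at -8.16 and 4.34, the globin gene ba1l at -3.65 and 3.14, and the heart genes cmlc1 at -3.66 and 2.01 and vmhc at -3.77 and 1.88.

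The hatching enzyme genes he1a and he1b stood at -1.71 and 3.43 and at -2.27 and 3.36. The crystallin copies crygm2d12, crygm2d14 and crygm2d5, whose reads may be shared, stood at -3.12 and 1.82, at -4.19 and 2.63, and at -3.20 and 1.73. For ba1l the GFP-positive libraries held 0 reads at 48 h and 18 at 36 h, at least 9.37-fold lower against the floor. Counts fell below the minimum for a considered gene in GFP-negative cells for slc2a15a (7 reads at 48 h and 53 at 36 h) and vmhc (35 and 8), and in GFP-positive cells for ba1l and crygm2d14 (7 and 109).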

How the results depend on the processing

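With library size scaling, 3729 genes were at least 2-fold higher and 740 lower in GFP-positive cells, and 298 and 1190 in GFP-negative cells. At 4-fold the counts were 1228 and 200 in GFP-positive cells, 57 and 226 in GFP-negative cells, and 881 above and 41 below for the GFP-positive change against the GFP-negative change. The stricter minimum, which considers fewer genes, left 1023 and 839 (GFP-positive) and 270 and 219 (GFP-negative) at 2-fold, and 328 and 163, 38 and 38, and 50 above and 112 below at 4-fold, which turns the balance reported for the difference between the changes. No minimum, which considers more, gave 6083 and 4309, and 1994 and 3863, at 2-fold, and 2327 and 1422, 331 and 795, and 2539 and 939 at 4-fold. Why library size and TMM scaling differ was not tested. Median of ratios and the prior count of 0.5 kept all these counts within 1.5 times of those reported. Of the 7 lists whose counts were recomputed, ionocyte genes at least 2-fold higher numbered 7 with the stricter minimum, and lens crystallins at least 2-fold lower numbered 9 with library size scaling. Library size scaling adds only 0.51 to each GFP-positive log2 ratio, so no ratio called at 2-fold could change sign with it. The medians of 6 of 38 lists did change sign with library size scaling. Other settings also turned the sign of some list medians. The diencephalic and catecholaminergic transcription factors went from 0.13 to -0.12 with the stricter minimum. Notochord and midline genes went from -0.31 to 0.50 with no minimum. The noradrenergic list went from 0.24 to -0.26 with summed reads. No paired analysis was possible because each age and sort has 1 library. For slc18a2, th2 and SLC6A3, with at most 22 GFP-positive reads, depth limits what can be said.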

Other observations

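Among features without a gene symbol in the tables, and so outside the rule for named genes, zgc:110829 had 3117 reads at 48 h and 9 at 36 h in GFP-positive cells (log2 ratio 7.56, 6.87 to 8.92), against 74 and 119 in GFP-negative cells. It was chosen after its values were seen.

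The dopamine receptor gene drd2a, also chosen afterwards, had 21 reads at 48 h and 0 at 36 h in GFP-positive cells, and 6 and 13 in GFP-negative cells.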
